A study of Mus musculus with 6 samples.

Results

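The 10 genes described here carry, store, move or release iron and heme: haptoglobin (Hp), hemopexin (Hpx), ceruloplasmin (Cp), transferrin (Trf), the transferrin receptor (Tfrc), heme oxygenase 1 (Hmox1), the ferritin heavy and light chains (Fth1, Ftl1), ferroportin (Slc40a1) and hepcidin (Hamp). They were chosen by symbol from the 25302 rows of the deposited table, and all 10 were found once. The choice was made with the Control and Sox9cKO values of these same samples known, among them those of Hp, which had the highest log2 fold change of any gene tested. The values of the 10 genes are therefore a description, with no test, and neither their number past a threshold nor their order supports anything further.

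RNA was sequenced from biliary epithelial cells of mouse liver in 6 samples. The 3 Control samples carried floxed Sox9 alleles (Sox9fl/fl), and the 3 Sox9cKO samples carried the same alleles with 1 copy of a Cre transgene driven by the albumin promoter (Sox9fl/fl:AlbCre+/-), which is active in the liver's epithelial lineage. All 6 samples thus shared the floxed alleles, the Control samples lacked Cre, and the presence of Cre cannot be told apart from the loss of Sox9. The labels number the replicates, and each title holds a further number in brackets that the labels do not explain. They do not say which animals the samples came from and give no age or sex, so every p-value below measures only the spread between these samples. The deposited values, called normalized counts below, stand for 11883496 to 16191990 reads per sample. Sox9 itself lay between 6043 and 6293 normalized counts in Control and between 3165 and 3363 in Sox9cKO, and the 9 biliary markers summed to 78804 to 116538 in Control and 72043 to 101012 in Sox9cKO.

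Iron travels in plasma bound to transferrin, and cells take up this complex through the transferrin receptor. Inside the cell, iron not put to use is stored in ferritin or leaves through ferroportin, which hepcidin binds and causes to be degraded. Hemoglobin and heme set free in plasma are captured by haptoglobin and hemopexin, and heme oxygenase opens the heme ring and releases its iron. Most of the plasma proteins in this group are made by hepatocytes, and Hp, Hpx, Cp and Hamp are known acute-phase genes of the liver, which respond to interleukin 6 and other cytokines.

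Hp and Hpx, the scavengers of hemoglobin and of heme, were the members with the highest fold changes. Hp (ENSMUSG00000031722), whose protein binds free hemoglobin, had normalized counts of 28.6, 24.1 and 24.2 in the Control samples and 1651, 3826 and 2019 in the Sox9cKO samples, each group in the order of its replicate numbers. Every Sox9cKO sample lay far above every Control sample, with Sox9cKO replicate 2 the highest. The means were 25.6 ± 2.55 and 2499 ± 1165 (SD, n = 3 each), a ratio of 97.5 between means and a log2 fold change of 6.46 (SE 0.30) on the scale of log2(normalized count + 1). In Control the gene rested on few reads, 21 in the sample with the fewest, whereas Sox9cKO replicate 2 had 4049. In bulk RNA, a change in the number of cells that carry a transcript cannot be told apart from a change in the amount of it per cell.

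Hpx (ENSMUSG00000030895), whose protein binds free heme with high affinity, followed the same order of samples within Sox9cKO. Its normalized counts were 55.5, 51.0 and 86.4 in Control and 871, 2695 and 1277 in Sox9cKO. The groups did not overlap, and Sox9cKO replicate 2 was again the highest. The means were 64.3 ± 19.3 and 1614 ± 958 (SD, n = 3 each), with a log2 fold change of 4.50 (SE 0.41). The ratio of Hp to Hpx reads was 0.52, 0.47 and 0.28 in the Control samples and 1.90, 1.42 and 1.58 in the Sox9cKO samples, so Hpx had more reads than Hp in every Control sample and fewer in every Sox9cKO sample.

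**Figure D1:**
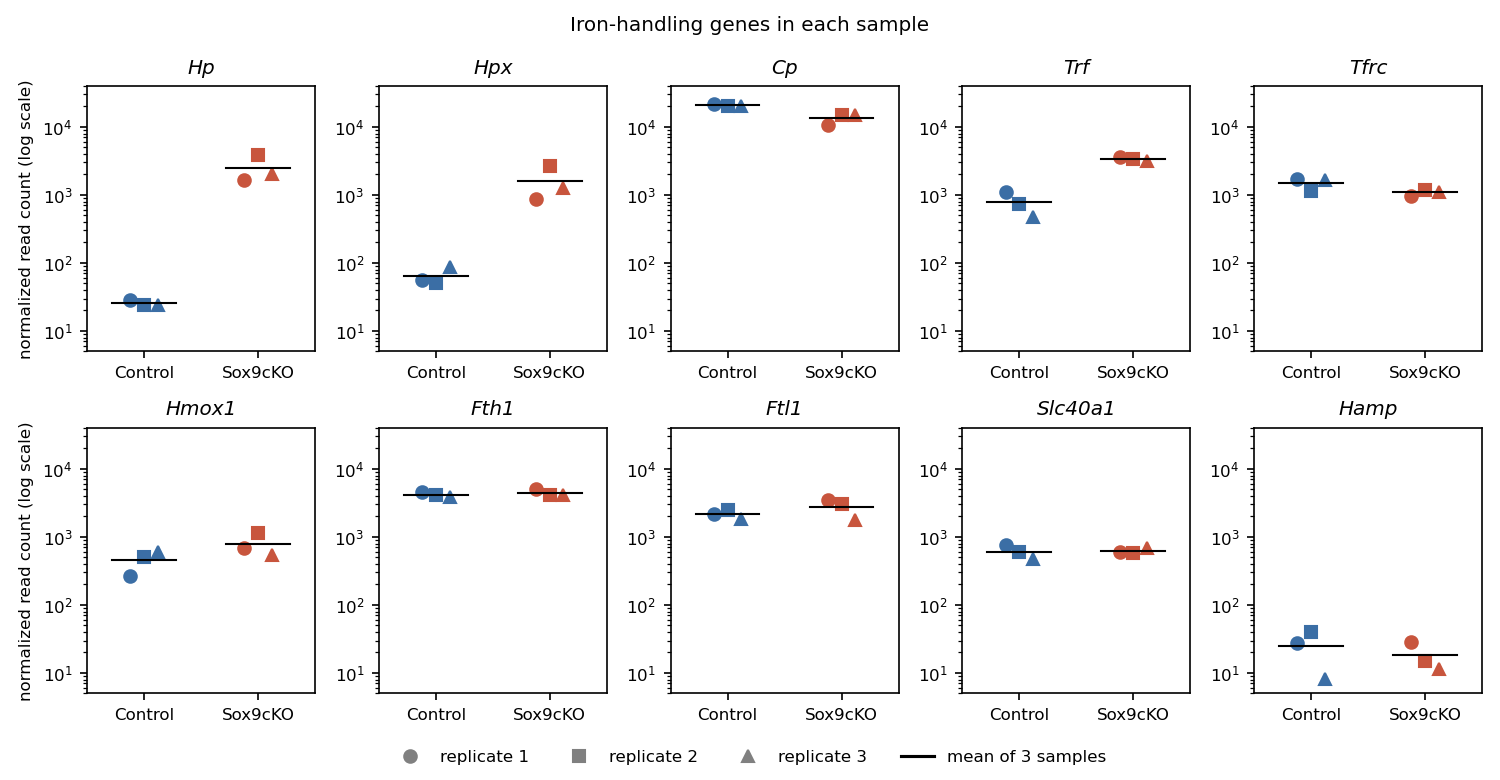
Normalized counts (log axis) of the 10 genes in each of the 6 samples, 1 panel per gene, with Control and Sox9cKO replicates as points and the group mean as a line. Hp goes from 24.1 to 28.6 in Control to between 1651 and 3826 in Sox9cKO, Cp is lower in each Sox9cKO sample, and the 2 groups of points overlap for Tfrc, Hmox1, Fth1, Ftl1, Slc40a1 and Hamp.

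The promoter of Hpx is shown because this is the gene with the largest difference for which the RefSeq table of promoters (GRCm38.p6) holds a window. It comprises the 250 bases before the annotated start, chr7:105600117-105600366 on the minus strand, written 5′ to 3′ in the direction of the gene, with a match to the C/EBP motif TTGCNNAA in capitals.
Hpx: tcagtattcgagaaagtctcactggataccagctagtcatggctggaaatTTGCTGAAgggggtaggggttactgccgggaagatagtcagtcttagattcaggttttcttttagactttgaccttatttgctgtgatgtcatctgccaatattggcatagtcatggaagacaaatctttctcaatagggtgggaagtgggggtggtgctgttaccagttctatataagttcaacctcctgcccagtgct
C/EBP factors are transcription factors of hepatocytes and of the acute-phase response. The motif, searched on both strands, lay 200 to 193 bases before the start and occurs in 9.56% of the 32851 promoter windows of this length. A match describes letters only. Hp, Trf, Hmox1 and Slc40a1 have no window in that table.

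Trf (ENSMUSG00000032554), the plasma carrier of ferric iron, had 1115, 736 and 474 normalized counts in Control and 3598, 3346 and 3140 in Sox9cKO. The Sox9cKO samples were close to each other and all lay above the Control samples, which spread more. The means were 775 ± 322 and 3361 ± 229 (SD, n = 3 each), a log2 fold change of 2.20 (SE 0.28). Tfrc (ENSMUSG00000022797), the receptor through which most cells take up iron-loaded transferrin, had 1712, 1146 and 1687 normalized counts in Control and 963, 1201 and 1099 in Sox9cKO. Control replicate 2 lay below Sox9cKO replicate 2, so the groups overlapped. The log2 fold change of Tfrc was -0.46 (SE 0.18). The ratio of Trf to Tfrc reads lay between 0.28 and 0.65 in Control and between 2.79 and 3.74 in Sox9cKO. These reads are not corrected for length, and the longest transcript is 2.57 kb for Trf and 4.89 kb for Tfrc. Per kilobase, Trf lay above Tfrc in Control replicates 1 and 2 (434 against 350, and 286 against 234). Trf lay below Tfrc in Control replicate 3 (184 against 345) and above it in every Sox9cKO sample.

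Cp (ENSMUSG00000003617), a copper-bound ferroxidase that helps load iron onto transferrin, had the highest normalized counts of the 10 in every sample, before any correction for length. It had 21908, 20068 and 20451 normalized counts in Control and 10855, 15076 and 15194 in Sox9cKO. Every Sox9cKO sample lay below every Control sample, with Sox9cKO replicate 1 the lowest. The means were 20809 ± 971 and 13708 ± 2472 (SD, n = 3 each), a ratio of 0.659 and a log2 fold change of -0.62 (SE 0.16). Cp was thus the single member whose groups did not overlap with Sox9cKO lower, and it differed in direction from Hp, Hpx and Trf, the other plasma proteins of the set with separated groups. It did not pass the threshold of the fit, and a count test with DESeq2 placed it past that threshold.

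The RefSeq table holds overlapping promoter windows for Cp, of which the first, chr3:19956804-19957053 on the plus strand (GRCm38.p6), is shown because Cp is the member that was lower in each sample with reduced Sox9. Capitals mark matches to ACAAAG and ACAATG, a pair of short motifs bound by factors of the SOX family.
Cp: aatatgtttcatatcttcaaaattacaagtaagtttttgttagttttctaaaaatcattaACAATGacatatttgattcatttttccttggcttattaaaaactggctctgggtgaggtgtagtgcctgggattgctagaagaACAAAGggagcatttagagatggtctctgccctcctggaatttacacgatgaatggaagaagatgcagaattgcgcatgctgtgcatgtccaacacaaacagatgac
ACAATG lay 190 to 185 bases and ACAAAG 107 to 102 bases before the start. On both strands, ACAAAG occurs in 16.5% and ACAATG in 10.7% of the 32851 windows, so either is common by its letters alone. The second Cp window holds ACAAAG on the opposite strand and a C/EBP match on the opposite strand, 70 to 63 bases before its start.

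Hmox1 (ENSMUSG00000005413), the inducible heme oxygenase, had 271, 514 and 605 normalized counts in Control and 688, 1141 and 541 in Sox9cKO. Sox9cKO replicate 3 lay below Control replicate 3, and the groups overlapped. Its log2 fold change was 0.78 (SE 0.37), and it was 0.43 without Control replicate 1 and 0.48 without Sox9cKO replicate 2.

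The storage and export genes had log2 fold changes from 0.058 to 0.31, and their groups overlapped. Their messages, and that of Tfrc, carry iron-responsive elements, hairpins bound by the iron regulatory proteins IRP1 and IRP2 when cellular iron is low. Binding in the 5′ untranslated region blocks translation, whereas binding in the 3′ untranslated region of Tfrc protects the message from decay. The elements are printed from GENCODE M21 transcripts (GRCm38), as DNA and 5′ to 3′, since they are what these members share in sequence. Capitals mark the bulged C and the 6-base loop CAGTGN between the stem arms.
Fth1, 5′ untranslated region: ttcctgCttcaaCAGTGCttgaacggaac
Ftl1, 5′ untranslated region: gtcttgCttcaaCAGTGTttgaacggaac
Slc40a1, 5′ untranslated region: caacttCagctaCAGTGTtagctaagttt
Tfrc, 3′ untranslated region, element 1: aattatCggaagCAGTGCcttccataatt
Tfrc, 3′ untranslated region, element 2: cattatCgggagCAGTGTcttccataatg
Tfrc, 3′ untranslated region, element 3: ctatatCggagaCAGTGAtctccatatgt
Tfrc, 3′ untranslated region, element 4: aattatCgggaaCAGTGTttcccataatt
The search asked for C, 5 bases, CAGTGN and 5 bases pairing with the first 5, with G:T pairs allowed, and found such a site in 4 of the 10 genes. Of 21875 genes searched, 0.096% had one in the 5′ and 0.535% in the 3′ untranslated region. The sites lie at bases 87 to 115 of Fth1-201, 78 to 106 of Ftl1-201, 90 to 118 of Slc40a1-201, and 3315 to 3343, 3694 to 3722, 3759 to 3787 and 3806 to 3834 of Tfrc-201. Read counts measure the message and not its translation, so what IRPs do at the 5′ elements is outside this measurement.

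Fth1 (ENSMUSG00000024661), the ferritin chain with ferroxidase activity, had 4545, 4146 and 3903 normalized counts in Control and 5011, 4090 and 4125 in Sox9cKO. The values interleaved, and the log2 fold change was 0.067 (SE 0.13). Ftl1 (ENSMUSG00000050708), the chain that aids formation of the iron core, had 2153, 2531 and 1838 normalized counts in Control and 3495, 3073 and 1779 in Sox9cKO. Sox9cKO replicates 1 and 2 lay above all Control samples and Sox9cKO replicate 3 below them, for a log2 fold change of 0.31 (SE 0.26). Without 1 sample this value ranged from 0.12, without Sox9cKO replicate 1, to 0.60, without Sox9cKO replicate 3, and it was 0.20 without Control replicate 3 and 0.21 without Sox9cKO replicate 2. Ferritin genes have processed copies in the genome whose reads can be assigned to either, and the highest value among the 5 such rows of the table was 90.5 normalized counts.

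Slc40a1 (ENSMUSG00000025993), the iron exporter, had 751, 594 and 472 normalized counts in Control and 599, 582 and 683 in Sox9cKO. All Sox9cKO values lay within the range of the Control values, and the log2 fold change was 0.058 (SE 0.19), with a sign that turned under other settings. Hamp (ENSMUSG00000050440), the peptide hormone that limits ferroportin and is made chiefly by hepatocytes, had 27.7, 39.9 and 8.06 normalized counts in Control and 28.9, 15.1 and 11.3 in Sox9cKO. These rested on 7 to 43 reads, the groups overlapped and the log2 fold change was -0.28 (SE 0.63), so a difference was not detectable at this depth. Without Control replicate 3 it was -0.92, and without Control replicate 2 it was 0.17. The near-identical copy Hamp2 had 0 to 12 reads in a sample and was not tested, and reads that both copies could have produced make the Hamp values uncertain.

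The promoter of Hamp is shown as that of an acute-phase gene whose values, unlike those of Hp and Hpx, overlapped between the groups. The window, chr7:30944030-30944279 on the minus strand (GRCm38.p6), holds a match to the STAT motif TTCNNNGAA, in capitals, 97 to 89 bases before the start.
Hamp: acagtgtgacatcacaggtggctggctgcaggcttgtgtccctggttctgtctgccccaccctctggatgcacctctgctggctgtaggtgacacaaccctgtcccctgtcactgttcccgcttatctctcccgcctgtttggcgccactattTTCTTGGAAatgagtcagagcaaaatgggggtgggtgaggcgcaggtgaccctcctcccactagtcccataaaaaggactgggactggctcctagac
STAT3 carries the interleukin 6 signal to the Hamp promoter in hepatocytes. The motif occurs in 7.02% of the 32851 windows. Of the 6 members with a window, Fth1 also held C/EBP matches, and Tfrc and Ftl1 held none of the motifs searched.

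All 10 genes passed the filter on low values (a mean of at least 10 normalized counts). In the limma fit across 17153 genes, the adjusted p-value (Benjamini-Hochberg) was under 0.05 for 3 of the 10, Hp, Hpx and Trf, all higher in Sox9cKO. Over all genes tested, 2.97% passed in either direction and 2.03% were higher. The values of the 2 groups did not overlap for 4 of the 10, beside 24.2% of all genes. The log2 fold change was positive in 7 and negative in 3 of the 10, with a median of 0.19 beside 0.036 over all genes. That median was 0.10 without Sox9cKO replicate 1, 0.11 without Control replicate 3, 0.30 without Control replicate 2, 0.36 without Sox9cKO replicate 3, 0.10 under quantile normalization and 0.31 at a minimum mean of 50, where Hamp was not tested. Since the genes were chosen with this contrast known, nothing is read from these counts. A fit that blocked on the replicate number passed the same 3 members, and 8.05% of all genes.

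**Figure D2:**
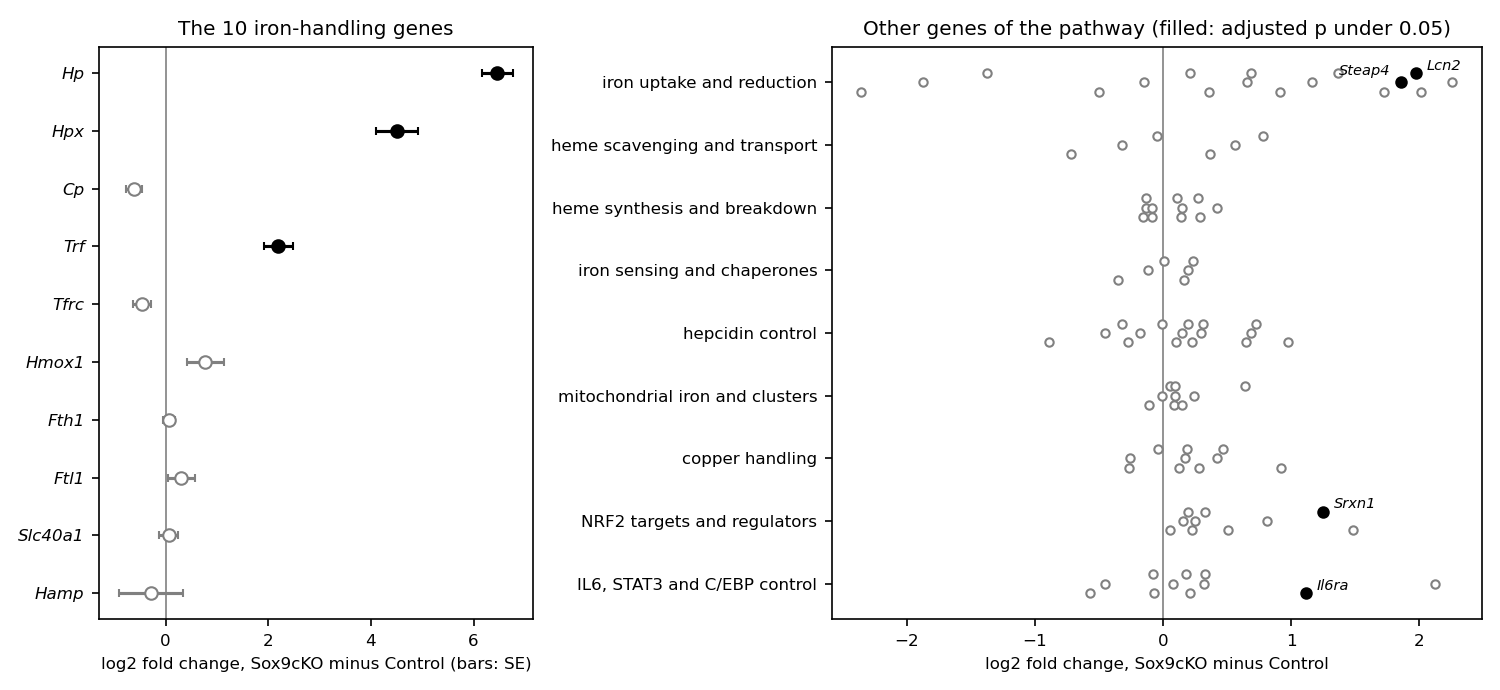
Log2 fold change, Sox9cKO minus Control, of the 10 genes (left, bars are SE, filled points had an adjusted p-value under 0.05) and of the other genes of 9 pathway lists (right, 1 point per gene, filled where the adjusted p-value was under 0.05). Hp, Hpx and Trf stand at 6.46, 4.50 and 2.20 on the left, and the 4 filled points on the right are Steap4, Lcn2, Srxn1 and Il6ra.

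Per kilobase of transcript, which allows genes to be compared, Cp stood highest of the 10 in every Control sample, with a mean of 4559 normalized counts per kilobase. In Control it was followed by the means of Fth1 at 2810 and Ftl1 at 2246, whose samples overlapped, then by Tfrc at 310, Trf at 301 and Hmox1 at 295, which lay within each other's sample spread. Slc40a1 stood at 180, within the spread of Hmox1 and just below the lowest Trf sample at 184, though the samples of Slc40a1 and Trf overlapped. Hamp at 61.6, Hpx at 42.9 and Hp at 19.1 followed, and the samples of Hamp overlapped those of Hpx and Hp. In Sox9cKO the means of Cp at 3004, Fth1 at 2951 and Ftl1 at 2874 lay within each other's sample spread, and in Sox9cKO replicate 1 Ftl1 at 3611 and Fth1 at 3354 lay above Cp at 2378. Hp at 1858, Trf at 1307 and Hpx at 1077 followed, again with overlapping samples, then Hmox1 at 504, Tfrc at 222 and Slc40a1 at 184, of which the last pair overlapped, and Hamp at 45.0. Among the 17013 tested genes with a known length, Hp thus moved from place 12993 to place 237 by level, Hpx from 10026 to 511 and Trf from 2494 to 389. Fth1 held places 122 and 130, and Cp moved from 70 to 125.

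**Figure D3:**
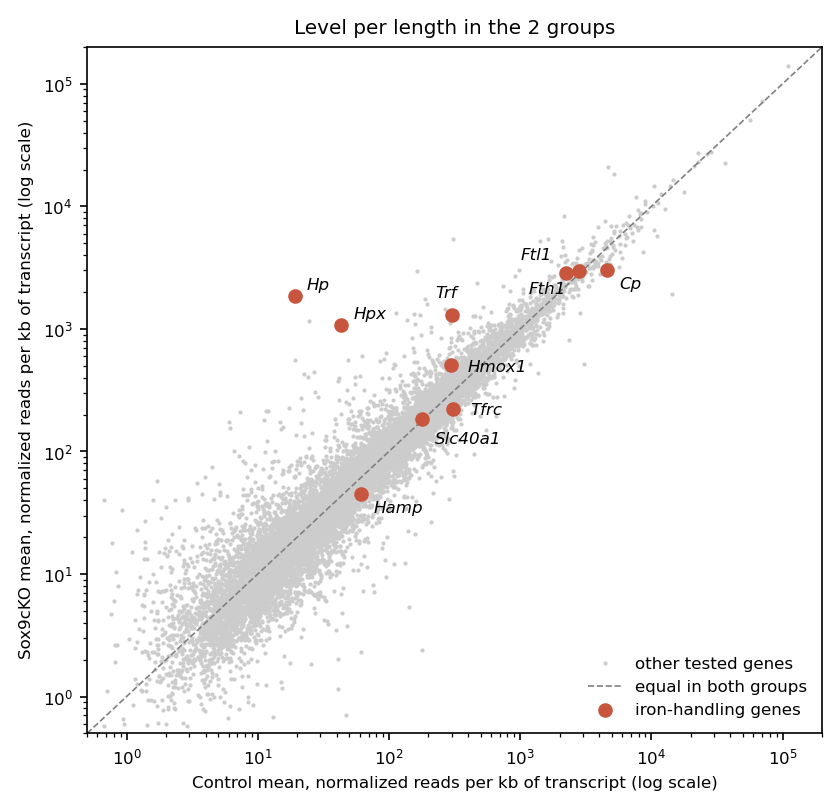
Mean normalized counts per kilobase in Control (x) and Sox9cKO (y), both on log axes, for the 10 genes (named) and for the other tested genes (grey), with the line of equal level and genes under the axis range left out. Hp, Hpx and Trf lie above the line, Cp lies below it at the upper end, and Fth1, Ftl1 and Slc40a1 lie near it.

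By its pattern over the 6 samples (root mean square difference of centred log2 values), the tested genes nearest to Hp were Serpina1b at 0.60, Lgr6 at 0.86 and Ltbp2 at 0.87. Hpx was the seventh, at 1.02. Serpina1b, an alpha-1 antitrypsin gene with near-identical paralogs whose reads may be split, went from 43.0 ± 9.78 to 2028 ± 201 normalized counts (SD, n = 3 each). Lgr6, an R-spondin receptor, went from 6.11 ± 2.10 to 222 ± 127, and Ltbp2, an extracellular matrix protein, from 40.9 ± 2.85 to 1180 ± 534. The difference between the groups, known when Hp was chosen, enters this distance. Within Sox9cKO, Serpina1b had 2197, 2081 and 1806 normalized counts, a different order from Hp, whereas Lgr6 and Ltbp2 were highest in replicate 2, as Hp was. Lgr6 had at most 8.35 normalized counts in any Control sample. These genes were picked for this likeness, so their values are a description.

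The wider pathway was represented by 101 genes in 9 lists, chosen by known role, of which 98 were in the table and 96 were tested. In the limma fit, 4 of the 96 passed an adjusted p-value of 0.05 (Benjamini-Hochberg over all genes), beside 2.97% of all genes, and all 4 were higher in Sox9cKO. The log2 fold change was positive in 66 and negative in 30, with a median of 0.18, beside 9293 positive and 7860 negative values and a median of 0.036 over all genes tested. The median of the 96 was 0.11 without Sox9cKO replicate 1 and 0.078 under quantile normalization. With the replicate block, 14 of the 96 passed, 13 higher and 1 lower, beside 8.05% of all genes. Without any one of the Control samples, the count fell to 2 of the 96.

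Iron uptake and reduction held 2 of the 4. Lcn2, lipocalin 2, which binds iron-carrying siderophores and is an acute-phase protein, rose from 1961 ± 532 to 7637 ± 1490 normalized counts (SD, n = 3 each). Its log2 fold change was 1.98 (SE 0.23, limma adjusted p = 0.00699), and all 3 Sox9cKO samples lay above all Control samples. Steap4, a metalloreductase that reduces ferric iron and cupric copper, rose from 225 ± 49.0 to 807 ± 83.4, with a log2 fold change of 1.86 (SE 0.19, limma adjusted p = 0.00496) and again no overlap. The list's median was 0.68 over 17 tested genes, 12 positive and 5 negative. The groups did not overlap for 11 of the 17, 8 higher and 3 lower, beside 24.2% of all genes. The 3 lower were Meltf, Scara5 and Slc22a17, with log2 fold changes of -1.87, -1.37 and -0.50, and none of them passed. Tfr2, the second transferrin receptor, which senses iron in hepatocytes, had 23.5, 14.8 and 5.76 normalized counts in Control and 59.7, 75.6 and 61.1 in Sox9cKO. Its log2 fold change was 2.26 (SE 0.48), with limma adjusted p = 0.0577, and 0.0222 with the replicate block. The receptors Tfrc and Tfr2 had log2 fold changes of opposite sign.

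Among the targets and regulators of NRF2, the transcription factor that also drives Hmox1 and the ferritin genes, 1 of 10 tested genes passed, beside 2.97% of all genes. All 10 had a positive log2 fold change, from 0.055 to 1.49 with a median of 0.29, beside 9293 of all 17153 genes. The list holds regulators as well as targets, and NRF2 activity was not tested. Srxn1, sulfiredoxin, rose from 821 ± 90.9 to 1995 ± 560 normalized counts (SD, n = 3 each), a log2 fold change of 1.25 (SE 0.20, limma adjusted p = 0.0222) with no overlap between groups. Without Control replicate 1, 2 or 3 its limma adjusted p was 0.109, 0.0609 and 0.0596. In the list for interleukin 6, STAT3 and C/EBP, the known drivers of Hp and Hpx, 1 of 11 tested genes passed, beside the same 2.97%. Of these 11, 7 had a positive and 4 a negative log2 fold change, with a median of 0.18 beside 0.036 over all genes. Il6ra, the ligand-binding chain of the interleukin 6 receptor, rose from 119 ± 11.6 to 262 ± 47.1, a log2 fold change of 1.12 (SE 0.19, limma adjusted p = 0.0275) with no overlap. Without Control replicate 1, 2 or 3 its limma adjusted p was 0.127, 0.0728 and 0.0726, and without Sox9cKO replicate 2 or 3 it was 0.0957 and 0.0892. Stat3 had a log2 fold change of -0.46, with limma adjusted p = 0.218, and 0.0432 with the replicate block. Il6 itself had 10.9, 16.7 and 2.30 normalized counts in Control and 57.7, 45.4 and 20.4 in Sox9cKO, with no overlap. Its log2 fold change was 2.13 (SE 0.69), with limma adjusted p = 0.171, and 0.0231 with the replicate block.

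None of the other 6 lists held a gene that passed without the block. Lrp1, the receptor that clears heme bound to hemopexin, had 4808, 4350 and 5728 normalized counts in Control and 9034, 6197 and 10794 in Sox9cKO. The groups did not overlap, and the log2 fold change was 0.78 (SE 0.22), with limma adjusted p = 0.119. With the replicate block the adjusted p was 0.0123, and without Sox9cKO replicate 2 it was 0.0442, in a range from 0.0123 to 0.315 over all alternatives. Cd163, the macrophage receptor for haptoglobin bound to hemoglobin, had at most 16.0 normalized counts in any sample and was not tested. The genes with the highest means of the remaining lists had small values: the log2 fold change was 0.14 for Alas1, which begins heme synthesis, -0.12 for Pcbp2, an iron chaperone, and 0.15 for Bmpr2, a receptor of the hepcidin pathway. It was 0.094 for Isca1, which helps assemble iron-sulfur clusters, and 0.12 for Mt1, a metallothionein. The limma adjusted p of these 5 lay above 0.5. In the copper-handling list, 7 tested genes had a positive and 3 a negative log2 fold change. The largest was 0.92 for Atp7b (SE 0.21), whose groups did not overlap, with limma adjusted p = 0.0748, and 0.0394 with the replicate block. Bmp6, a ligand that induces hepcidin, had a log2 fold change of 0.73, with limma adjusted p = 0.204, and 0.0198 with the replicate block. Its normalized counts were 1465, 2344 and 2601 in Control and 2677, 4360 and 3466 in Sox9cKO. The summed markers of endothelial cells, a source of Bmp6 in liver, were also higher in Sox9cKO within each replicate number, as given below. The highest Control value of Bmp6 fell in replicate 3, where the endothelial sum was lowest. The part of endothelial cells in the Bmp6 values was not tested.

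Because several members are made in bulk by hepatocytes, the markers of that cell type are given beside them. All 16 listed hepatocyte markers were in the table, and their summed level was 19210 to 30333 normalized counts in Control and 23280 to 37427 in Sox9cKO. Nearly all of this was Alb, and without it the sum was 1827 to 2650 and 1882 to 3066. Both sums overlapped between the groups but were higher in Sox9cKO within each replicate number. The log2 fold change was positive in 12 and negative in 4 of the 16, with a median of 0.35 beside 0.036 over all genes. Of the 16, Tat alone passed the threshold, beside 2.97% of all genes. Set against Alb, Hp had 1.03, 1.39 and 1.28 reads per 1000 Alb reads in Control and 51.3, 179 and 57.1 in Sox9cKO. Hpx had at most 4.56 reads per 1000 Alb reads in Control and 27.1 to 126 in Sox9cKO, and Trf had 25.0 to 42.3 and 88.8 to 156. For each of the 3 genes, the ratios to Alb did not overlap between the groups. These ratios rest on the values the genes were chosen with, and the part of hepatocyte RNA in the levels of Hp, Hpx and Trf was not tested.

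**Figure D4:**
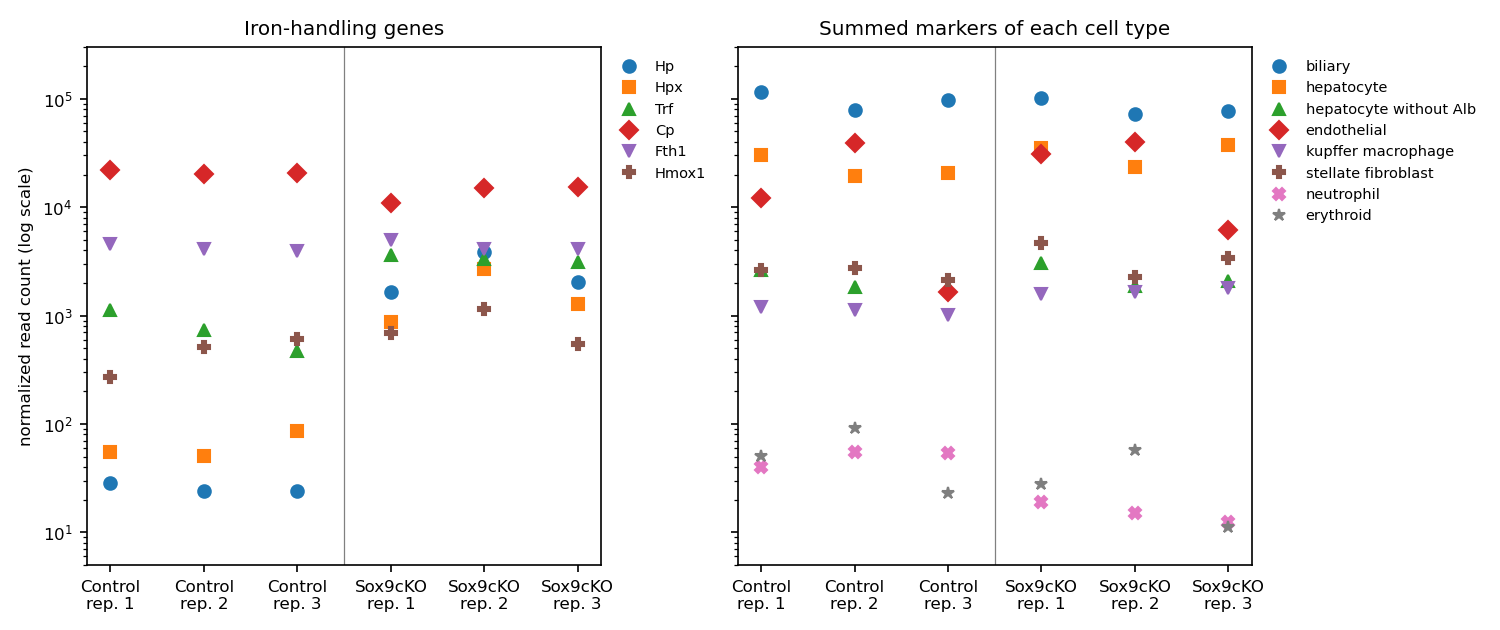
Left, normalized counts (log axis) of Hp, Hpx, Trf, Cp, Fth1 and Hmox1 in each sample, where Hp and Hpx lie below Hmox1 in each Control sample and above it in each Sox9cKO sample. Right, summed normalized counts (same axis) of the marker lists of each cell type in the same samples. The hepatocyte sum overlaps between groups but is higher in Sox9cKO within each replicate number. The endothelial sum is high in Control replicate 2 and Sox9cKO replicates 1 and 2.

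Among the further marker sums given here, the endothelial sum was uneven and lay above the hepatocyte sum in Control replicate 2 and Sox9cKO replicate 2. The rest were lower than the hepatocyte sum. Sums of different marker lists do not measure how many cells of each type were present. The 10 Kupffer cell and macrophage markers, cells that recycle heme iron and express Hmox1 and Slc40a1, summed to 1018 to 1198 in Control and 1578 to 1814 in Sox9cKO. Csf1r accounted for most of that and passed the threshold (log2 fold change 0.92, SE 0.13, limma adjusted p = 0.0142, groups not overlapping), and without it the sum was 221 to 418 and 175 to 312. Of 9 neutrophil markers, cells that store haptoglobin and lipocalin 2 in granules, S100a8, S100a9, Ly6g, Camp and Retnlg were not among the rows used, and the other 4 summed to 40.3 to 54.8 in Control and 12.5 to 18.9 in Sox9cKO. Of these 4, Csf3r alone passed the filter on low values, and Ngp, a granule protein of neutrophils, had at most 5.76 normalized counts in any sample. The part of neutrophils in the values of Hp and Lcn2 was not tested. The 6 erythroid markers in the table summed to at most 91.0 in Control and 57.6 in Sox9cKO. The endothelial sum was 12113, 39180 and 1661 in Control and 30759, 39735 and 6139 in Sox9cKO, so that it overlapped between the groups but was higher in Sox9cKO within each replicate number. All 8 endothelial markers had a positive log2 fold change, with a median of 1.07, and none passed the threshold with or without the replicate block. The stellate cell and fibroblast sum was 2133 to 2739 in Control and 2261 to 4634 in Sox9cKO. Bmp2, a hepcidin inducer made by liver endothelium, had 1324, 4425 and 359 normalized counts in Control and 3331, 4811 and 1004 in Sox9cKO. This was the same order of samples as in the endothelial sum. The part of endothelial or macrophage cells in the values of Hmox1, Ftl1, Slc40a1, Bmp2 and Bmp6 was not tested.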

How the data were processed

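Total RNA of biliary epithelial cells was made into stranded, ribosomal RNA-depleted libraries with unique molecular identifiers, per the labels' protocols. The authors deposited a normalized signal for each gene, read counts divided by 1 size factor per sample (0.868 to 1.19), as the values show: dividing each column by its step gave whole reads for 100% of values (tolerance 0.001). The submitters' processing notes name DESeq2 1.36.0 and GRCm39. The aligner, the counter, and the use of strand and molecular identifiers are not given in the sources used here. The lowest total of a gene was 10 reads.

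Values were taken as log2(value + 1), which understates changes of low genes. Genes with a mean of at least 10 (17153) were fitted with limma 3.58.1 in R 4.3.3 (eBayes with trend, two-sided), with Benjamini-Hochberg adjustment over all of them and a threshold of 0.05. edgeR 4.0.16 and DESeq2 1.42.0 on the recovered reads were alternatives. The fits were tested on simulated data. The titles give each group the replicate numbers 1, 2 and 3. The bracketed numbers beside them were not used. The deviations of same-numbered samples from their group means correlated at 0.2065, 0.4717 and 0.5417, each above 0.1, so the numbers were taken to pair the samples, and a fit blocked on that number (replicate block) is given where it changes a call.

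Lengths are those of the longest GENCODE M21 basic transcript, matched for 99.2% of tested genes. Symbols are those of the table. Genes named are the 10 members, every pathway gene past the threshold, the gene with the highest mean of a list with none, and the 3 genes nearest to Hp. Tfr2, Meltf, Scara5, Slc22a17, Il6, Stat3, Csf3r, Atp7b, Bmp6, Bmp2, Cd163, Hamp2 and Tat were named after their values were seen. The members and lists were chosen with earlier results of these data known.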

Additional observations from a re-analysis of the deposited data

How the results depend on the processing

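Each group had 3 samples, and the low reads of Hp in Control and of Hamp limit their precision by counting alone. Hp, Hpx and Trf passed the threshold under all 17 alternatives, with log2 fold changes of 6.10 to 6.71, 4.05 to 4.87 and 1.89 to 2.51. The count of members past the threshold was 3 in each alternative except DESeq2, where Cp (adjusted p = 0.00892, and up to 0.299 under the other alternatives) made it 4. Hamp could not be tested at a minimum mean of 50. Lcn2 and Steap4 passed under all 17 as well. The cause of the changes below was not tested.

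The count of all genes past the threshold, 510, became 1381 with the replicate block, 1160 in edgeR with the replicate block and 1214 in DESeq2, each including the 510, and 200 to 389 when 1 sample was left out. The lowest were 200 without Control replicate 1, 210 without Control replicate 3, 280 without Sox9cKO replicate 3 and 337 without Sox9cKO replicate 2. The count of other iron genes, 4, became 14 with the replicate block, 11 in edgeR with the block, 11 in DESeq2, and 2 to 6 when 1 sample was left out. The block changed no call among the members. The adjusted p of Srxn1 was 0.0576 without the intensity trend and that of Il6ra 0.0591 under quantile normalization.

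Small log2 fold changes changed sign. Under quantile normalization, which moved the median of all genes from 0.036 to -0.031, Fth1 was -0.026, Slc40a1 -0.057 and Isca1 -0.012. Slc40a1 was -0.0068 in edgeR and -0.0032 in DESeq2. Leaving out 1 sample gave ranges of -0.029 to 0.13 for Fth1, -0.11 to 0.23 for Slc40a1, -0.92 to 0.17 for Hamp, -0.045 to 0.31 for Alas1, -0.051 to 0.38 for Bmpr2, -0.036 to 0.31 for Isca1 and -0.20 to 0.38 for Mt1.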
